A study of Mus musculus with 4 samples.

Results

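Sphingosine-1-phosphate (S1P) signalling was examined in cells of bronchoalveolar lavage fluid (BALF) from bleomycin-administered mice through 10 genes taken by name. These were the 5 receptors S1pr1, S1pr2, S1pr3, S1pr4 and S1pr5, the kinases Sphk1 and Sphk2, the lyase Sgpl1, the phosphatase Sgpp1 and the exporter Spns2. They are 10 of the 20832 gene symbols that could be named on the array, and 11 probes measured them, since Sphk1 had 2. The study compared wild-type and S1pr2-/- mice on 4 one-color Agilent arrays, 2 for each genotype.

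The S1pr2-/- mice carried a targeted disruption of S1pr2 on a mixed 129Ola;C57BL/6J background that was backcrossed once to C57BL/6J, and the wild-type mice were their littermates. The fibrosis model used mice of 8 to 10 weeks. Mice of both genotypes received bleomycin, a drug that injures the lung and leads to fibrosis, by the intraperitoneal route at 0.035 U/g 2 times weekly, and the RNA was that of day 22. No array of mice without bleomycin was used here, so the comparison is of genotypes within injured lungs. The deletion was in the whole animal. Whether the RNA of 1 array came from 1 mouse or from several is not given in the sources used here, and the p-values therefore measure only the spread between these samples.

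S1P is a lipid mediator made inside cells when a sphingosine kinase adds a phosphate to sphingosine. It leaves the cell through transporters, of which Spns2 is one, and then acts on G protein-coupled receptors of the same or of neighbouring cells. Phosphatases return it to sphingosine, and the lyase breaks it down for good. S1pr1 couples to Gi and is best known for guiding lymphocytes out of lymphoid organs, and S1pr2 couples also to G12/13 and often opposes cell migration. In the lung, S1pr1 on endothelium helps to keep the vessel wall tight.

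The labels name the cells alveolar macrophages, whereas the RNA was prepared from BALF cells with no sort described. All 10 alveolar macrophage markers, such as Siglecf, Marco and Chil3, were well above background on all 4 arrays. All 7 measured T cell markers, all 7 measured neutrophil markers, all 6 B cell and plasma cell markers and all 6 natural killer (NK) cell markers were as well. So were all 6 epithelial markers. Most probes of the arrays passed this limit, so it does not by itself show that a cell type was present. In bulk RNA of unsorted cells, fewer cells of a type and less RNA per cell cannot be told apart. The 75th percentile of the processed signal lay between 2489 and 2817 on the 4 arrays, between 67.6% and 72.2% of the probes were well above background, and all 4 arrays shared 1 slide and 1 scan. Nearly every array spot was usable, with 115 to 273 flagged spots of 43020 on an array and 0 saturated spots.

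Levels are given as a percentage of the array's 75th percentile of processed signal, and differences as log2 of S1pr2-/- over wild-type. Probes bind their targets unequally, so a level is compared between arrays and never between genes. All 11 probes were well above background on all 4 arrays.

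The targeted gene went against its label. The S1pr2 probe read 91.5% and 89.6% of the 75th percentile for wild-type mice and 635% and 583% for the arrays labelled S1pr2-/-. Both arrays labelled S1pr2-/- were thus above both wild-type arrays. The log2 difference was 2.75 (SE 0.07, 95% confidence interval 2.53 to 2.97, n = 2 arrays per genotype), with an adjusted p of 0.333 in limma's moderated test over all probes. The position of this probe with respect to the deleted sequence is not given in the sources used here, so it cannot check which array is which. Each direction below rests on the labels.

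Across the 27161 probes tested, none passed an adjusted p of 0.05 in limma in either direction (0.0% lower and 0.0% higher), and none of the 11 probes of the S1P genes did. At an unadjusted p under 0.05, 5.59% of all probes were lower and 3.99% higher on the arrays labelled S1pr2-/-, and the S1P genes had 1 lower probe (of Sphk1) and 1 higher probe (of S1pr2). With 2 arrays against 2, an exact two-sided permutation test of a single probe cannot go below p = 0.333. Separation of the genotypes is therefore given as a count with no test. Of the 11 probes, 4 had both S1pr2-/- arrays under both wild-type ones (21.8% of all probes tested), 2 had them over (20.0%), and 5 overlapped. Those apart in either direction were thus 6, where 41.7% of all probes tested were apart. The 4 lower probes were those of S1pr1 and S1pr4 and both of Sphk1, and the 2 higher ones were those of S1pr2 and Sgpl1. At least 1.5-fold lower were 3 of the 11, against 3.62% of all probes tested, namely S1pr1, S1pr5 and the brighter probe of Sphk1, and 1, S1pr2, was at least 1.5-fold higher, against 1.15%. The median difference of the 11 probes was -0.11, against -0.0030 for all probes.

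**Figure D1:**
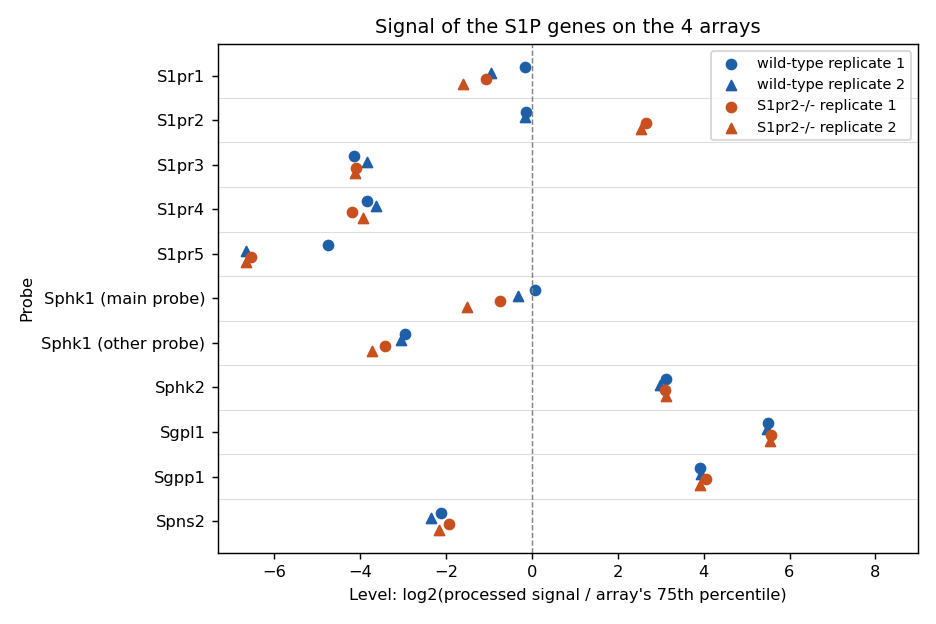
Level of each S1P gene on the 4 arrays, on a log2 scale where 0 (dashed line) is the 75th percentile of that array's processed signal. Each point is 1 array, with wild-type in blue and the arrays labelled S1pr2-/- in orange; levels compare arrays within a probe, not probes with each other. Both orange points of S1pr2 lie far to the right of both blue points, those of S1pr1, S1pr4 and Sphk1 lie to the left, and the 4 points of Sgpl1 and Sphk2 nearly coincide.

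The promoters of the genes whose genotypes did not overlap are shown here for reference beside the values that follow. The letters are from RefSeq on GRCm38.p6, from 250 bases before to 50 after a transcript start, and 9 of the 10 genes had an entry, S1pr1 having none. Sphk1 had 5 entries, and the one printed was picked for its AP-1 letters, which it shares with an overlapping entry. The other 3 had none, 1 of them being without any of the motifs and 2 overlapping ones holding a GATA match and 3 KLF matches each. Capitals mark a match on either strand to 1 of 4 motifs. The letters searched for AP-1, bound by the Fos and Jun proteins, were TGANTCA, found in 7.81% of all 32851 promoters of this length. Those searched for the Krüppel-like factors, of which Klf2 is one, were CACCC, found in 57.5% of them. The GC box, which the Sp proteins bind, was searched as GGGCGG and found in 35.7%. The blood cell factors of the GATA family were searched as AGATAA, found in 11.2%.
Sphk1, chr11:116531587-116531886, plus strand: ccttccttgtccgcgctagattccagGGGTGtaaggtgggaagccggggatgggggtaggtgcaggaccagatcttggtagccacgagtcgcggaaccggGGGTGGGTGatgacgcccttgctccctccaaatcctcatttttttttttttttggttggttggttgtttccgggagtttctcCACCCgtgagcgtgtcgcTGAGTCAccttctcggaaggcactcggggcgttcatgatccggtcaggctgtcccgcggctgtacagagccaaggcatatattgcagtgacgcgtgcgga
S1pr4, chr10:81500088-81500387, minus strand: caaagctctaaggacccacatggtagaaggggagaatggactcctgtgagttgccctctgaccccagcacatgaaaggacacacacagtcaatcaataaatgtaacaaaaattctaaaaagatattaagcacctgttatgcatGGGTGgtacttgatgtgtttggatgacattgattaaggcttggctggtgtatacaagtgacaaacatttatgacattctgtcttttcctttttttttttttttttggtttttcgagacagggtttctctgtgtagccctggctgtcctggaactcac
S1pr2, chr9:20976744-20977043, minus strand: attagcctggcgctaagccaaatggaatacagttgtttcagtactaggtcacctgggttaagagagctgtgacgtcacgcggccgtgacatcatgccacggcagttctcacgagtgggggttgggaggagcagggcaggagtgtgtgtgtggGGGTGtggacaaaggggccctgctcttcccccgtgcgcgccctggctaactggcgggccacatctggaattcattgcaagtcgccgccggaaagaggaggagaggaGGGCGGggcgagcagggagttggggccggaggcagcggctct
Sgpl1, chr10:61147635-61147934, minus strand: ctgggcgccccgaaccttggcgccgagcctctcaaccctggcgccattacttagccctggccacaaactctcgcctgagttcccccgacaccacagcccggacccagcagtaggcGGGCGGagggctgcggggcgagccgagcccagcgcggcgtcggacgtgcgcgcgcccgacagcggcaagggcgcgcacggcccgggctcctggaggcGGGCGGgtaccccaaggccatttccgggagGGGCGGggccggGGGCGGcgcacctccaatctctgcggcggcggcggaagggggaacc
The Sphk1 window held 1 AP-1 match and 4 KLF matches. The S1pr4 window held 1 KLF match, the S1pr2 window 1 KLF match and 1 GC box, and the Sgpl1 window 4 GC boxes. A match is a description of letters and not a bound site, and none of these arrays measured binding.

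Among the other receptors, the S1pr1 probe read 89.1% and 51.9% of the 75th percentile for wild-type mice, against 48.2% and 33.1% for the arrays labelled S1pr2-/-. The wild-type arrays were the higher ones, but the nearest arrays of the genotypes differed by 0.11 on the log2 scale while the pair of wild-type arrays was 0.78 apart. The difference of -0.77 (SE 0.37, 95% confidence interval -1.90 to 0.37) had an adjusted p of 0.586 in limma. Leaving out wild-type replicate 1 brought it to -0.38.

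S1pr4, a receptor of lymphoid and other blood cells, read 7.02% and 8.05% for wild-type against 5.50% and 6.58% on those labelled S1pr2-/-. The 2 genotypes lay 0.09 apart on the log2 scale at their nearest arrays. The difference was -0.32 (SE 0.14, 95% confidence interval -0.74 to 0.10, adjusted p = 0.556 in limma), and under quantile normalization the genotypes overlapped.

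S1pr3, a receptor that couples to Gi, Gq and G12/13, read 5.72% and 6.98% for wild-type and 5.85% and 5.82% for S1pr2-/- labels. The genotypes overlapped, and the difference of -0.11 (95% confidence interval -0.49 to 0.26, adjusted p = 0.756 in limma) was 0.02 under quantile normalization.

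S1pr5, known for the exit of NK cells from lymphoid organs, read 3.76% on wild-type replicate 1 and 0.732% on wild-type replicate 2, and 1.08% and 0.599% on the arrays labelled S1pr2-/-. Its signals of 96.0, 18.2, 30.5 and 15.4 in that order stood beside 23.7, 17.5, 18.7 and 14.8, the lowest signal well above background on the same arrays. Only wild-type replicate 1 was clearly apart from that limit. Values under 1% were set to 1% before the log2, so the -0.90 of the fit (95% confidence interval -3.17 to 1.37, adjusted p = 0.701 in limma) rests on 2 arrays at that minimum, and without wild-type replicate 1 it was 0.06.

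**Figure D2:**
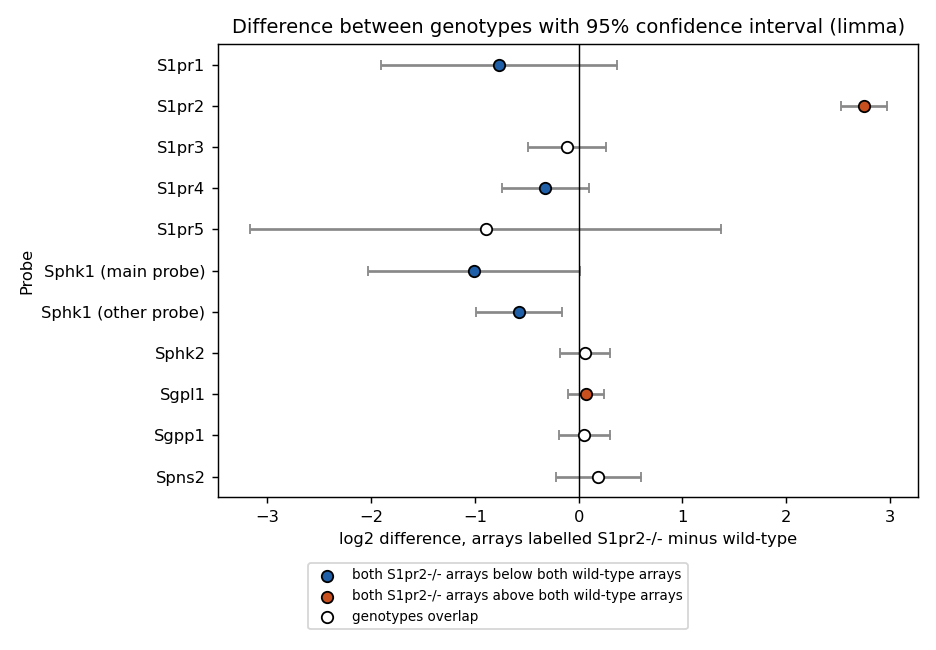
Log2 difference between the genotypes (arrays labelled S1pr2-/- minus wild-type, n = 2 each) for each probe, with limma's 95% confidence interval as the bar. Blue points mark probes whose S1pr2-/- arrays both lie below the wild-type arrays, orange points the reverse, and white points overlap. The intervals of S1pr2 (2.53 to 2.97) and of the other Sphk1 probe (-0.99 to -0.16) leave out 0, and no probe passes the adjusted threshold.

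RNA of the kinases that make S1P was read on 3 probes, of which both Sphk1 probes had lower values and the Sphk2 probe overlapped. The arrays did not measure S1P itself or the activity of the kinases. Sphk1, the kinase that acts at the plasma membrane after growth factor and cytokine signals, read 105% and 80.5% for wild-type and 59.5% and 35.2% for S1pr2-/- labels. The mean wild-type level was 2.01 times the other. The difference of -1.01 (SE 0.34, 95% confidence interval -2.03 to 0.01) had an unadjusted p of 0.0514 and an adjusted p of 0.521 in limma.

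The second Sphk1 probe, designed on another transcript of the gene, read 13.0% and 12.0% for wild-type and 9.32% and 7.57% for S1pr2-/- labels. It differed the same way, by -0.57 (SE 0.14, 95% confidence interval -0.99 to -0.16), with an unadjusted p of 0.0202 and an adjusted p of 0.509 in limma. With normexp background correction, quantile or cyclic loess normalization, another percentile or the authors' own log2 values, the first probe ran from -1.02 to -0.97 and the second from -0.58 to -0.50, with the genotypes apart each time. With 1 array left out, the differences ran from -1.39 to -0.63 for the first probe and from -0.72 to -0.42 for the second.

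Sphk2, the kinase found largely in the nucleus and mitochondria, read 879% and 791% for wild-type and 862% and 879% for S1pr2-/- labels. Its genotypes overlapped. The difference of 0.06 (SE 0.08, adjusted p = 0.794 in limma) had a 95% confidence interval from 0.882-fold to 1.24-fold, so a change of the size measured for Sphk1 lay outside it.

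The lyase and the phosphatase Sgpp1 differed by at most 0.07 between the genotypes. Sgpl1, the lyase of the endoplasmic reticulum that cleaves S1P irreversibly, read 4552% and 4422% for wild-type and 4764% and 4674% for S1pr2-/- labels. Both latter arrays were above both wild-type arrays, by 0.04 on the log2 scale at the nearest. The difference of 0.07 (SE 0.06, 95% confidence interval -0.10 to 0.25, adjusted p = 0.694 in limma) amounted to 1.05-fold. Under the same changes of background correction and scaling as for Sphk1 it ran from 0.06 to 0.11.

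Sgpp1, the phosphatase that returns S1P to sphingosine, read 1507% and 1545% for wild-type and 1671% and 1504% for S1pr2-/- labels. The arrays of the genotypes overlapped, with a difference of 0.06 (95% confidence interval -0.19 to 0.30, adjusted p = 0.821 in limma). Spns2, the exporter, read 23.1% and 19.6% for wild-type and 26.2% and 22.5% for S1pr2-/- labels. It overlapped too, at 0.19 (95% confidence interval -0.22 to 0.60, adjusted p = 0.670 in limma).

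**Figure D3:**
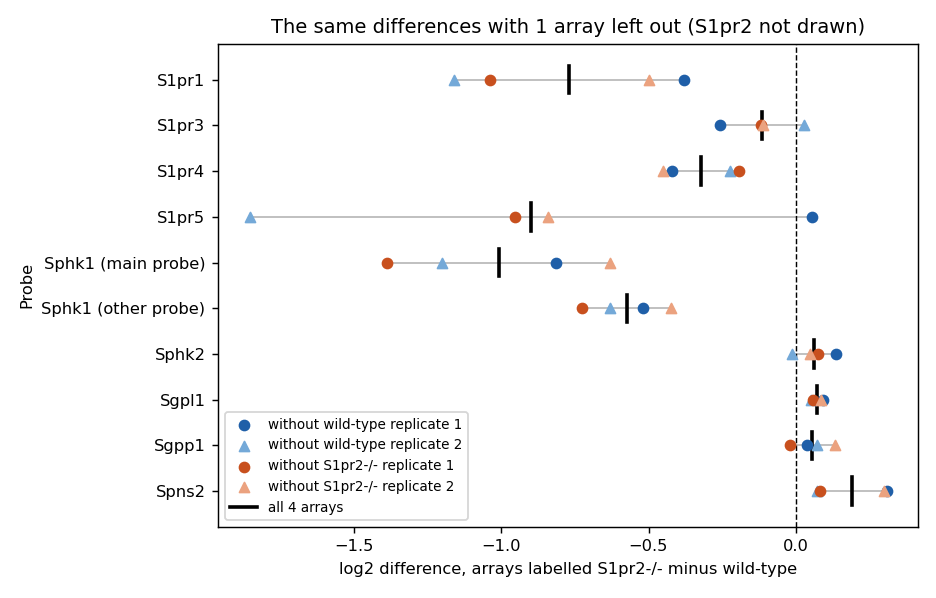
Log2 difference of each S1P probe with all 4 arrays and with each array left out in turn. The values of S1pr1 run from -1.16 to -0.38 and those of Sphk1 from -1.39 to -0.63, whereas S1pr5 moves from -1.85 to 0.06 and changes sign without wild-type replicate 1.

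Markers of several cell types shared the order of genotypes with some of these genes, and their part in the differences was not tested. The counts of markers beyond overlap stand against 21.8% lower and 20.0% higher among all probes. The summed level of the 7 T cell markers was 1703% and 1854% for wild-type and 1525% and 1124% for S1pr2-/- labels, with 4 lower and 0 higher. Lck, a large part of the sum, was lower, at 561% and 593% against 394% and 288%. Cd3e, Cd3g and Cd4 overlapped, with differences of -0.32, -0.21 and -0.08. The 7 neutrophil markers summed to 8241% and 9242% against 6663% and 5744%, with 5 lower and 0 higher. Csf3r was the largest part of each sum, and S100a8 and Camp overlapped, with differences of 0.25 and -0.11. Retnlg differed most in this list, by -4.81, at 629% and 2016% against 28.9% and 55.5%. The eosinophil markers summed to 254% and 796% against 12.3% and 21.1%, with all 5 tested markers lower.

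The dendritic cell markers summed to 1092% and 1361% against 965% and 942%, with 2 of 6 lower and 0 higher. Most of the sum was that of Ccr7, which was lower, as was Zbtb46. Flt3, Clec9a and Cd209a overlapped with differences above 0 (0.28, 0.13 and 0.49), and Xcr1 overlapped at -0.21. Of the 6 epithelial markers 5 were lower and 0 higher, although their sum of 2877% and 3217% against 2335% and 3904% overlapped. The T cell, neutrophil, eosinophil and dendritic cell sums thus had the genotype order of S1pr1, S1pr4 and Sphk1, though not every marker did. Within wild-type, these sums and S1pr4 were higher on replicate 2, and S1pr1 and both probes of Sphk1 on replicate 1. Single neutrophil markers were split in this respect. Csf3r (4849% and 4422%) and S100a8 (1500.5% and 1326%) were higher on wild-type replicate 1. Retnlg (629% and 2016%), S100a9, Cxcr2, Mmp9 and Camp were higher on wild-type replicate 2. Of the 7 monocyte-derived macrophage markers 4 were higher and 0 lower, with sums of 10561% and 3971% against 11499% and 7092%. Apoe, whose genotypes overlapped, was the largest part of each of these sums. The alveolar macrophage markers ran from 62105% to 70745% with the genotypes overlapping, 2 of 10 being lower and 2 higher.

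The 6 B cell and plasma cell markers summed to 163% on wild-type replicate 1 and to 52.6%, 81.7% and 53.9% on the other 3 arrays, in the order wild-type replicate 2, S1pr2-/- replicate 1 and S1pr2-/- replicate 2. Wild-type replicate 1, where S1pr1 and S1pr5 were also highest, was the highest array for Cd79a, Cd79b and Ms4a1. Jchain, the joining chain of plasma cell antibodies, read 3.14% and 2.51% against 18.3% and 8.28%, and Pax5 was highest on S1pr2-/- replicate 2.

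The 6 NK cell markers summed to 313% and 766% against 395% and 209%, and most of each sum was that of Gzma. Klrb1c and Klrk1 were highest on S1pr2-/- replicate 1, and 1 of 6 markers, Eomes, was lower beyond overlap. Of the 6 endothelial markers, Tek and Cldn5 were not well above background on any array. Pecam1 was lower beyond overlap, at 9.24% and 8.87% against 7.16% and 6.19%, Vwf was higher, and Cdh5 and Kdr overlapped. The endothelial sum of 1421% and 1589% against 1512% and 1944% was nearly all that of Vwf and Kdr.

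**Figure D4:**
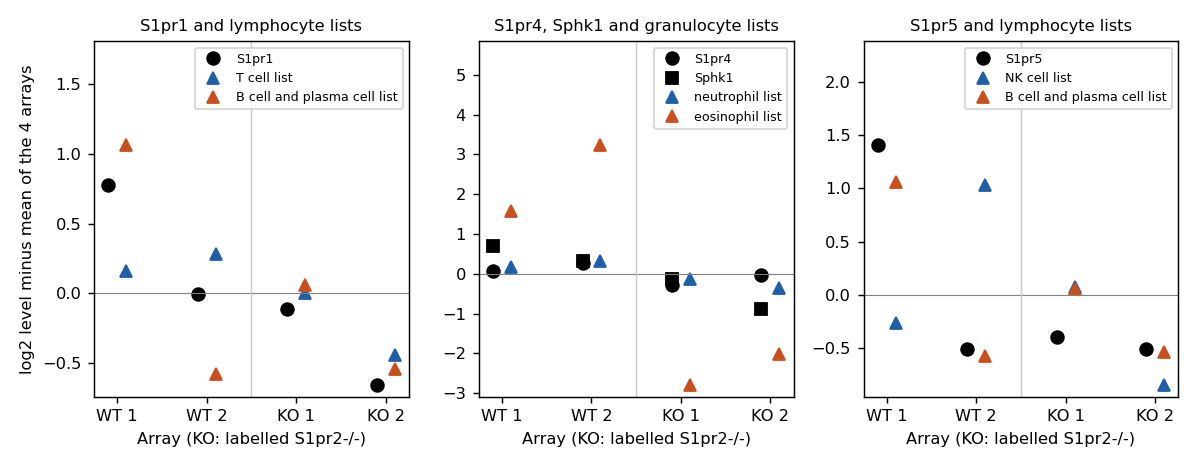
Log2 level on each array minus its mean over the 4 arrays, for S1P genes (black) and for summed marker lists (coloured triangles), with wild-type arrays left of the grey line. S1pr1, S1pr4, Sphk1 and the T cell, neutrophil and eosinophil lists lie lower on the arrays labelled S1pr2-/-, and wild-type replicate 1 stands highest for S1pr1, S1pr5 and the B cell list.

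The genes whose values were most like those of Sphk1, by Euclidean distance over the 4 arrays among 15401 genes, each set to its own mean, included Ncmap (0.132) and Fam169b (0.169). For S1pr2 they were Dcpp1 (0.645), Dcpp2 (0.707) and Syt10 (0.912). Dcpp1 and Dcpp2 were at the minimum on both wild-type arrays and Syt10 was not, with log2 levels of -2.88 and -2.73 against -0.75 and 0.40 in the knockout-labelled pair.

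S1pr2 and S1pr5 lie on chromosome 9 with 17 genes between them in the GRCm38.p6 annotation, 11 of which were protein-coding and 11 tested. These neighbours were looked at after the values of S1pr2 had been seen. Their differences ran from -0.40 (Cdc37) to 0.12 (Fdx2), with 2 lower and 1 higher beyond overlap (against 21.8% and 20.0% of all probes), and none passed the adjusted p in limma, 1 having an unadjusted p under 0.05. None came near the 2.75 of S1pr2.

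The wider pathway was read on 53 genes that supply sphingosine, move or remove S1P, regulate the kinases and receptors, or carry the receptors' signals. Of these, 48 were tested, and none passed an adjusted p of 0.05 in limma (the adjusted values ran from 0.509 to 0.979). At an unadjusted p under 0.05, 3 were lower and 6 higher, against 5.59% and 3.99% of all probes. The genotypes were apart with lower values for 13 and with higher values for 12 (27.1% and 25%), against 21.8% and 20.0% of all probes, which are also the shares to read beside each group below. The median difference was 0.02, and single genes ran from -0.94 to 0.70. Sgpp2, Alb, Sphkap and Acer1 were not well above background on any array, and Acer2 was so on wild-type replicate 1 alone.

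Among the 6 tested regulators of the kinases, 3 were lower and 2 higher beyond overlap (50% and 33.3%, against 21.8% and 20.0% of all probes). Fhl2, a LIM protein that binds Sphk1, read 26.3% and 39.5% for wild-type and 16.7% and 17.0% for S1pr2-/- labels, a difference of -0.94 (SE 0.24, adjusted p = 0.509 in limma). Traf2, a partner of Sphk1 in tumour necrosis factor signalling, differed by -0.29 on its main probe and by 0.04 on the other. Mapk3, the ERK kinase form that phosphorylates Sphk1, differed by 0.26 on its main probe and by 0.24 on the other, where the genotypes overlapped. Cib1 differed by -0.05 and Cib2 by 0.14.

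On the side of sphingosine supply, 3 genes were tested and 1 was apart. Asah2, the neutral ceramidase that frees sphingosine from ceramide, read 7.16% and 6.06% for wild-type and 9.52% and 9.52% for S1pr2-/- labels. Its difference was 0.53 on this probe (SE 0.11, adjusted p = 0.509 in limma) and 0.44 on the other.

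Of the 3 tested genes of phosphate removal at the cell surface, 2 were higher beyond overlap. Plpp3, a lipid phosphatase that acts on S1P outside the cell, read 192% and 157% for wild-type and 324% and 244% for S1pr2-/- labels, a difference of 0.70 (SE 0.20, adjusted p = 0.518 in limma). Plpp2 differed by 0.09. Aldh3a2, the aldehyde dehydrogenase that takes up the product of the lyase, differed by 0.19 (SE 0.06, adjusted p = 0.519 in limma). Of 5 genes that use the same lipids, the ceramide synthases and the ceramide kinase, 1 was apart, the synthase Cers2, at 0.14.

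Among 6 tested carriers, 2 were lower and 1 higher beyond overlap (33.3% and 16.7%, against 21.8% and 20.0%). Abcc1, an exporter of S1P in mast cells and others, differed by 0.22, Abca7 by -0.17 and Mfsd2b, the exporter of erythrocytes and platelets, by -0.16 on its main probe, the other being at the minimum on 2 arrays. Among 6 regulators of the receptors, 3 were lower and 1 higher (50% and 16.7%, against 21.8% and 20.0%). Klf2, the transcription factor that drives S1pr1 in lymphocytes, read 276% and 209% for wild-type and 185% and 172% for S1pr2-/- labels. Its genotypes were apart in the direction of S1pr1, with a difference of -0.43 (SE 0.17, adjusted p = 0.542 in limma). Cd69, which takes S1pr1 off the lymphocyte surface, overlapped at -0.26. Grk2 differed by -0.10 and Arrb1 by 0.17. Dnm2 differed by -0.05 on its main probe and by 0.06 on the other, where the genotypes overlapped.

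Of 18 G proteins and effectors, 5 were lower and 3 higher beyond overlap, and at 27.8% and 16.7% these shares were near the 21.8% and 20.0% of all probes. Rock1, a kinase downstream of G12/13, differed by -0.37 on its main probe and by 0.06 on the other. Gna12, Gna11 and Arhgef12 differed by 0.37, 0.20 and 0.06, whereas Gnai2 and Gnai3, the Gi subunits through which S1pr1 signals, differed by -0.14 and -0.11.

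**Figure D5:**
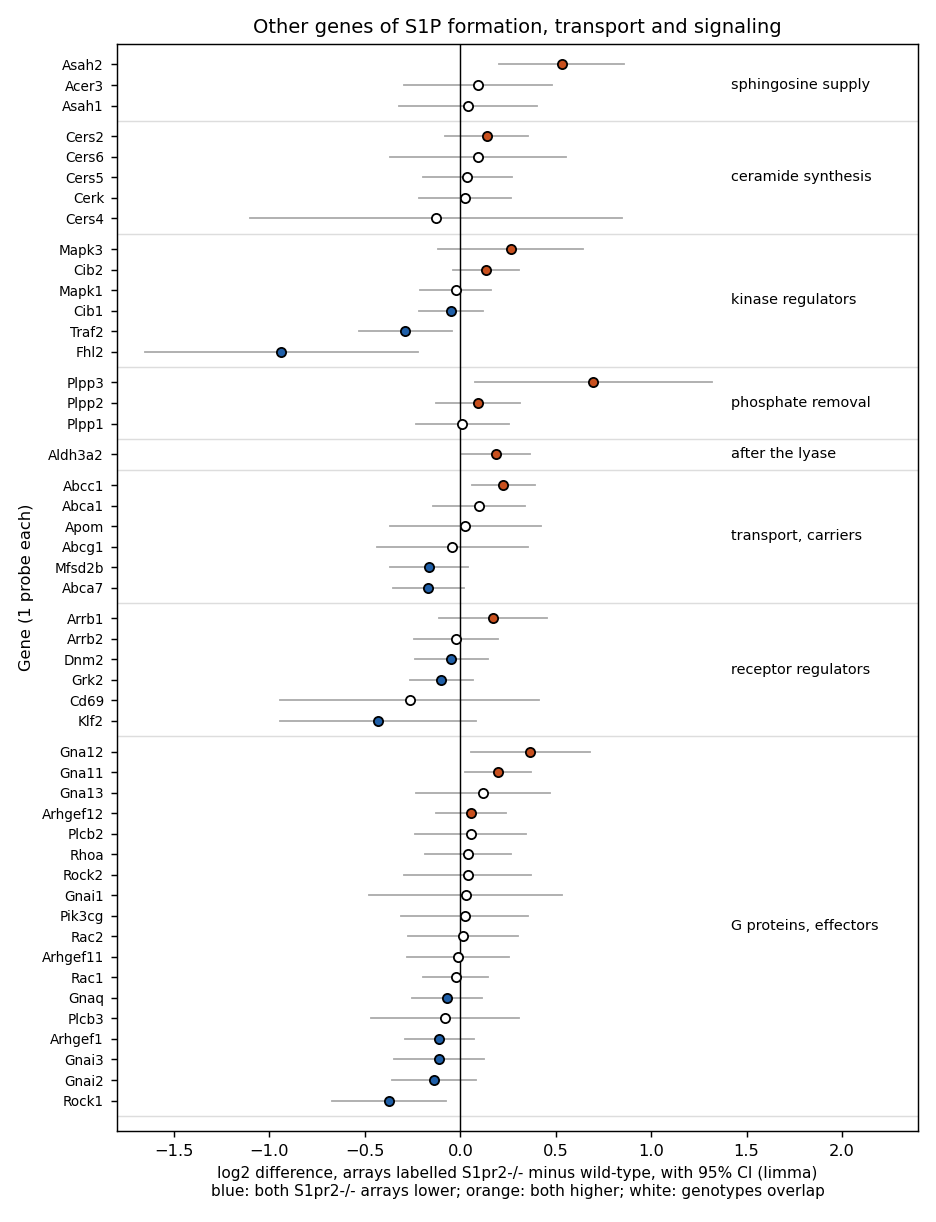
Log2 difference (arrays labelled S1pr2-/- minus wild-type) of the 48 tested pathway genes, 1 probe a gene, grouped by role; colours mark genotypes that do not overlap. Fhl2 at -0.94 and Plpp3 at 0.70 are the extremes, and most of the others lie within 0.37 of 0.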

How the data were processed

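Total RNA of BALF cells was labelled with Cy3 and hybridized to 1-color Agilent arrays, 4 in all. The deposited scanner files hold processed signal intensity per spot, background-subtracted by the authors with Agilent Feature Extraction (10.7.3.1 in the submitters' processing notes, 11.0.1.1 in the file headers), and flags per spot. The deposited series table holds the authors' normalized log2 values, which served only as an alternative.

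Spots of a probe were averaged without flagged and control spots, divided by the array's 75th percentile, set to at least 0.01 and converted to log2. Probes with a value on every array that stood well above background in both samples of a genotype were tested with limma 3.58.1 in R 4.3.3, after a check on simulated data, with Benjamini-Hochberg adjustment over all 27161. A probe was well above background on an array if 0.5 or more of its retained spots were. Of 39429 probes, 69.6% could be named. Of several probes of a gene, the brightest was the main one. Coordinates are those of the RefSeq promoter table (GRCm38.p6); probe coordinates, on another build in the headers, were not used.

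Named genes were all 10 S1P genes on every probe, pathway genes whose genotypes did not overlap (at most the 3 lowest and 3 highest of a group) and, for S1pr2 and Sphk1, which differed by more than 1, the 3 genes nearest in pattern, of which 1 is not reported here. Cd69 and the genes between S1pr2 and S1pr5 were added after values were seen. Genes and lists were chosen with earlier results of these data known. The 16 alternatives changed the background correction (normexp with offset 50, on median signals of non-control spots because mean signals were not in the files used), normalization, floor, filter, flags, variance trend, test, replicate block and arrays.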

Additional observations from a re-analysis of the deposited data

How the results depend on the processing

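With 2 arrays per genotype, precision is limited by their number, and leaving out an array leaves 1 in its genotype, which is then assumed to vary like the other. No S1P probe and no pathway gene passed an adjusted p of 0.05 in limma under the alternatives, except that normexp background correction gave 1 S1P probe, S1pr2 (difference 2.73, adjusted p = 0.0222, with a range of 0.0222 to 0.682 over all alternatives). The S1P probes that were higher beyond overlap numbered 2, against 4 under quantile normalization and 3 to 4 with an array left out (4 without wild-type replicate 1 or S1pr2-/- replicate 2), and the lower ones numbered 4, against 3 to 4 and 4 to 5. Probes at an unadjusted p under 0.05 numbered 2, against 1 by the methods' t-test, 5 with the replicate number as a block (S1pr1, S1pr2, S1pr4 and both probes of Sphk1) and 1 to 3 with an array left out (1 without wild-type replicate 1). Samples with the same number deviated together with a correlation of 0.187 over 2 pairs, too few to take the numbers as a pairing, so they share only a number. S1pr3 turned from -0.11 to 0.0204 under quantile normalization and ranged from -0.26 to 0.0286 with an array left out (0.0286 without wild-type replicate 2). S1pr5 ranged from -1.85 to 0.0564 (0.0564 without wild-type replicate 1), Sphk2 from -0.0134 to 0.14 (-0.0134 without wild-type replicate 2) and Sgpp1 from -0.0211 to 0.13 (-0.0211 without S1pr2-/- replicate 1). The second probe of Rock1 ranged from -0.0689 to 0.19 and that of Traf2 from -0.0362 to 0.11 (both below 0 without wild-type replicate 1). The cause of these changes was not tested. The other S1P probes, the main probes of the pathway genes named with a difference and the second probe of Asah2 kept their direction under all 16 alternatives, and no scaling moved the median of all probes by more than 0.04.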
